A study of Mus musculus with 16 samples.

Results

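The WNT genes of 2 mouse melanoma models and of melanocytes were examined on Affymetrix M430A_2 mouse arrays: the ligands, their frizzled receptors and co-receptors, the R-spondin receptors, the secreted and feedback antagonists, and the nuclear effectors. Members were every gene with a single symbol in the probe annotation whose symbol begins with Wnt, Fzd, Sfrp or Dkk followed by a digit, together with Wif1, Frzb, Axin2, Lef1, Lgr5, Lgr6, Apcdd1, Nkd1, Notum, Lrp5, Lrp6 and Ctnnb1. This gave 48 of the 12393 genes on the array. Tcf7 is not analysed here. The members divide into 19 ligands, 9 frizzled receptors, 2 co-receptors, 2 R-spondin receptors, 10 secreted antagonists, 4 feedback antagonists and 2 nuclear effectors.

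The iMet melanomas (6 arrays) have the genotype Tyr-rtTA;Tet-Met;Ink4a/Arf-/-, in which a tetracycline-inducible Met transgene is driven through the tyrosinase promoter. The iHRAS* melanomas (6 arrays, titled iRas) have the genotype Tyr-rtTA;Tet-HRASV12G;Ink4a/Arf-/-, with an activated HRAS in place of Met. Both models therefore carry rtTA under the tyrosinase promoter and lack Ink4a and Arf, so loss of that locus is shared by the tumour groups. The 4 melanocyte arrays come from mouse melanocytes with no disease, for which the labels give no genotype. No age or induction schedule is given in the labels of any group. The sample labels speak of isolated melanoma cells and the design text of RNA from cutaneous melanomas. The samples of a group are not stated to come from separate animals, so p-values measure the spread between these samples only. The design text states that the models were compared by whether their tumours can metastasise.

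WNT proteins are lipid-modified secreted signals that bind a frizzled receptor, either together with the co-receptors Lrp5 or Lrp6, which stabilises beta-catenin so that it enters the nucleus and acts with TCF/LEF factors, or through routes that bypass beta-catenin. Secreted proteins of the SFRP, WIF and DKK families hold the signal back outside the cell, and target genes such as Axin2, Notum and Nkd1 feed back on it. R-spondins, acting through the LGR receptors, protect frizzleds from removal at the cell surface. In skin, WNT signalling is required for the hair follicle and for the specification of melanocytes from the neural crest.

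Signals are log2 values after quantile normalization, with 1 probe set per gene. A signal is called dim at or below log2 6.21, the 40th percentile of all probe sets, and a member was tested only if enough arrays lay above that cut-off (6 of the 12 tumour arrays between the models, 4 of 16 against melanocytes). Differences are on the log2 scale, with the standard error and the Benjamini-Hochberg adjusted p of limma over all genes tested, and a gene was called at an adjusted p under 0.05. Signals of different probe sets were not compared with each other.

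The labelled cell types were checked against their markers before the results. On the melanocyte arrays, the pigment enzyme genes Tyr, Tyrp1 and Dct averaged 3.97, 4.25 and 4.19, all dim, while the lineage factor Sox10 averaged 9.66 and the basal keratin genes Krt5 and Krt14 averaged 12.57 and 12.73. Other genes of the same lists went the other way. Slc45a2 and Pmel averaged 7.08 and 6.70, and Krt1, Cdh1 and Epcam were dim at 3.44, 3.77 and 1.63. The melanocyte group mean exceeded log2 6.21 for 4 of 9 melanocyte lineage genes and 9 of 12 keratinocyte genes. The mean of the keratinocyte list (12 genes with a probe set) ran from 4.54 to 9.09 on iMet arrays, 8.59 to 10.64 on iHRAS* arrays and 6.51 to 9.24 on melanocyte arrays. The Schwann cell and neural crest list (7 genes) ran from 3.75 to 5.28 on iMet arrays, 7.15 to 8.55 on iHRAS* arrays and 7.10 to 8.18 on melanocyte arrays, with Sox2 and Foxd3 averaging 0.59 and 1.78 in iMet tumours. Melanocyte arrays 1 and 3 resembled each other, as did 2 and 4. The keratinocyte mean was 7.44 and 6.51 in the first pair and 9.24 and 9.02 in the second. Xist was at 6.60 and 6.33 in iHRAS* tumours 5 and 6 and between 10.9 and 13.1 on the other 14 arrays. Fewer cells of a type and less RNA per cell cannot be told apart in such RNA.

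**Figure D1:**
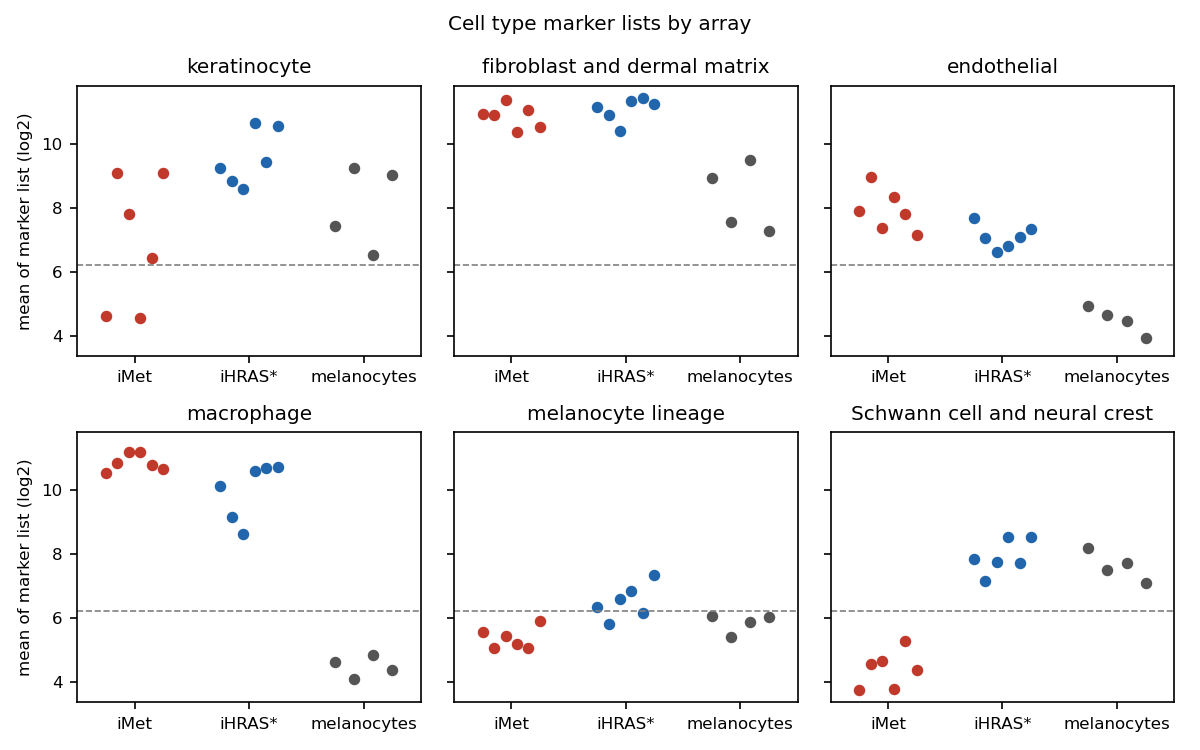
Mean log2 signal of 6 cell type marker lists (y axis) on each array, in iMet tumours (red), iHRAS* tumours (blue) and melanocytes (grey). The dashed line is the dim cut-off at log2 6.21. Macrophage and endothelial means were higher on every tumour array than on every melanocyte array, and the Schwann cell and neural crest means of iMet tumours lay below those of both other groups.

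The other marker lists were also compared between groups. Macrophage markers averaged 10.53 to 11.20 per array on iMet arrays, 8.64 to 10.75 on iHRAS* arrays and 4.11 to 4.84 on melanocyte arrays. Endothelial means were 7.15 to 8.98 on iMet arrays, 6.62 to 7.67 on iHRAS* arrays and 3.92 to 4.92 on melanocyte arrays. Means of the fibroblast and dermal matrix list were 10.36 to 11.38 in iMet, 10.41 to 11.43 in iHRAS* and 7.29 to 9.50 in melanocyte samples. Between the models, 8 of 11 endothelial markers tested were higher in iMet tumours, where 11.2% of all genes tested were higher and 9.7% lower. In the same comparison, 4 of 11 keratinocyte markers and 5 of 6 Schwann cell and neural crest markers were lower, as were 3 of 5 of the melanocyte lineage. Fibroblast markers had 2 higher and 2 lower of 10, macrophage markers 2 higher of 12, hair follicle markers 1 of 4 and adipocyte markers 1 of 1, and none of the 5 skeletal muscle markers tested was called. Against melanocytes, endothelial markers were higher for 11 of 12 tested in iMet and 10 of 12 in iHRAS* tumours. Of all genes tested there, 16.4% were higher and 18.7% lower in iMet tumours, and 18.1% and 21.3% in iHRAS* tumours. Keratinocyte markers had 3 higher and 7 lower of 12 in iMet tumours, and 4 higher in iHRAS* tumours. Schwann cell and neural crest markers had 4 lower of 6 in iMet tumours, and 1 higher and 1 lower in iHRAS* tumours. Melanocyte lineage markers had 1 higher and 3 lower of 5 in iMet tumours, and 1 higher in iHRAS* tumours. In each model 3 of 6 hair follicle, 2 of 6 skeletal muscle and 1 of 1 adipocyte markers were higher than in melanocytes, and the 1 marker of T and B cells tested was not called. The part of these cells in the WNT differences was not tested.

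Of the 19 ligands, 9 were dim on every array and 5 more exceeded the cut-off on 1 to 3 arrays. Of the 48 members, 14 were dim on every array, namely the ligands Wnt1, Wnt2b, Wnt3, Wnt3a, Wnt7a, Wnt8a, Wnt8b, Wnt9b and Wnt16, the receptors Fzd5 and Fzd9, the antagonists Dkk1 and Dkk4, and the feedback inhibitor Nkd1. The highest value among these 14 was log2 6.20. Another 7 members exceeded the cut-off on 1 to 3 arrays, and 11 did so on all 16. A dim signal does not show that a gene is silent, since it sets only an upper bound.

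**Figure D2:**
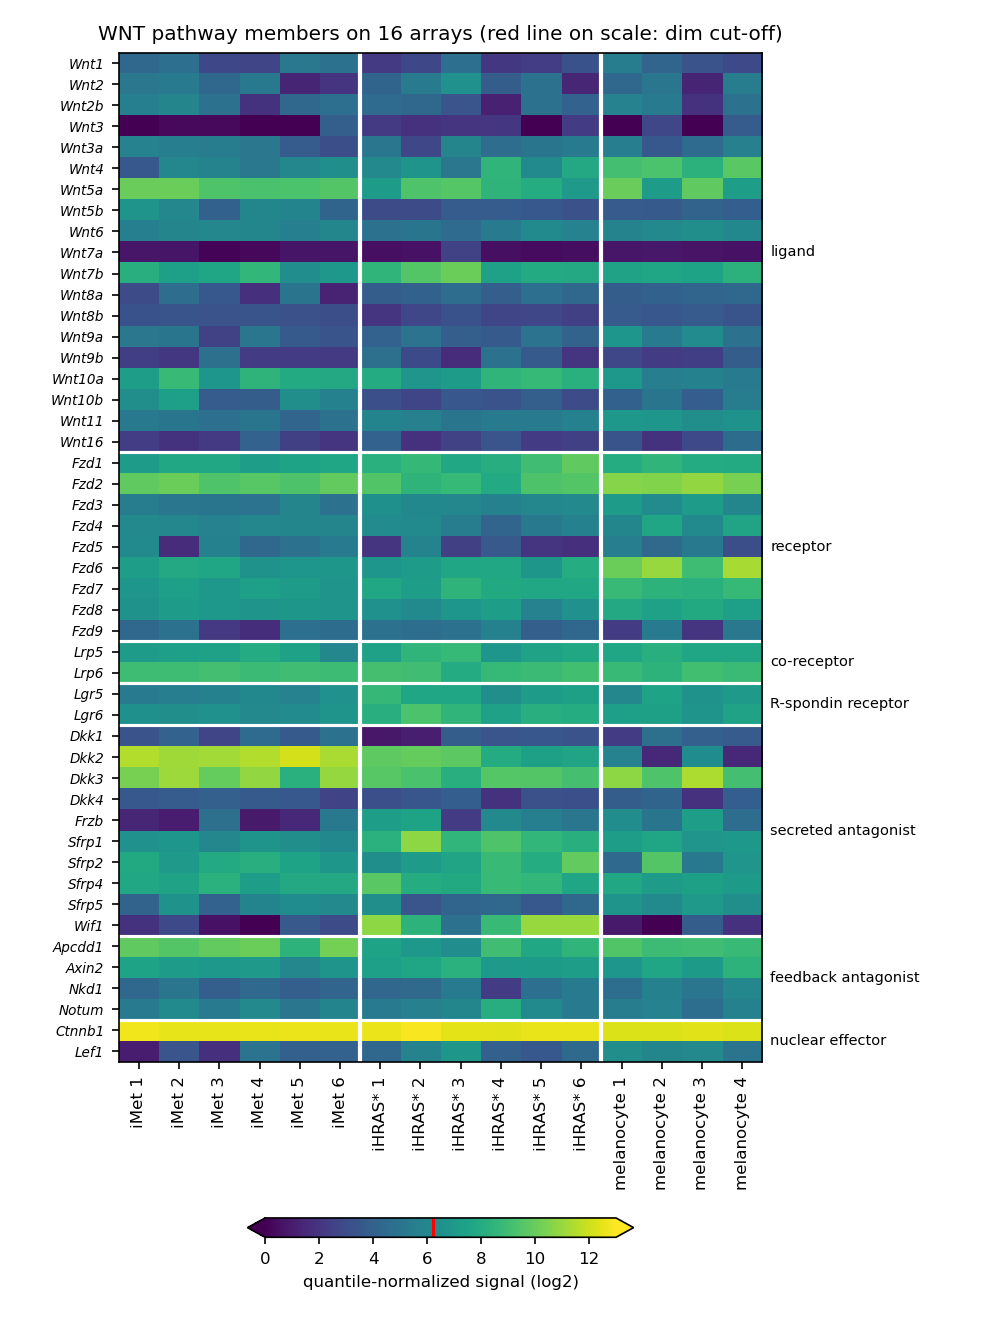
Quantile-normalized log2 signal (colour) of the 48 WNT members (rows, by role) on the 16 arrays (columns: iMet 1 to 6, iHRAS* 1 to 6, melanocytes 1 to 4). Colours can be compared along a row and not between rows, because each row is another probe set. Dkk2 is brightest in iMet tumours, Wif1 stands out on 5 iHRAS* arrays, and 9 of 19 ligands are dim throughout.

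Between the models, 20 members were tested. In iMet tumours 3 were higher than in iHRAS* tumours, which is 15% of those tested against 11.2% of all 8058 genes tested. Another 5 were lower, which is 25% against 9.7% of all genes tested. The median difference was −0.31 over the members tested and 0.03 over all genes tested. Group ranges did not overlap for 5 of the 48 members (10.4%), against 7.88% of all genes with a probe set.

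Against melanocytes, 27 members were tested in each model, and both comparisons use the same 4 melanocyte arrays. In iMet tumours 2 members were higher (7.41%, against 16.4% of 8651 genes) and 9 were lower (33.3%, against 18.7%). In iHRAS* tumours 6 members were higher (22.2%, against 18.1%) and 9 were lower (33.3%, against 21.3%). The median difference of the members tested was −0.62 for iMet tumours, with −0.08 over all genes, and −0.06 for iHRAS* tumours, with −0.09 over all genes. Of the 27 members tested, 6 (Frzb, Fzd3, Fzd4, Sfrp5, Wif1 and Wnt11) would not have passed the dim filter without the group where they are highest, so these counts and medians are descriptions only. Between the models this held for 6 of the 20 (Axin2, Fzd8, Lgr5, Lgr6, Lrp5 and Sfrp1). Ranges did not overlap for 11 members in iMet tumours (22.9%, against 21.9% of all genes) and for 8 in iHRAS* tumours (16.7%, against 20.8%).

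**Figure D3:**
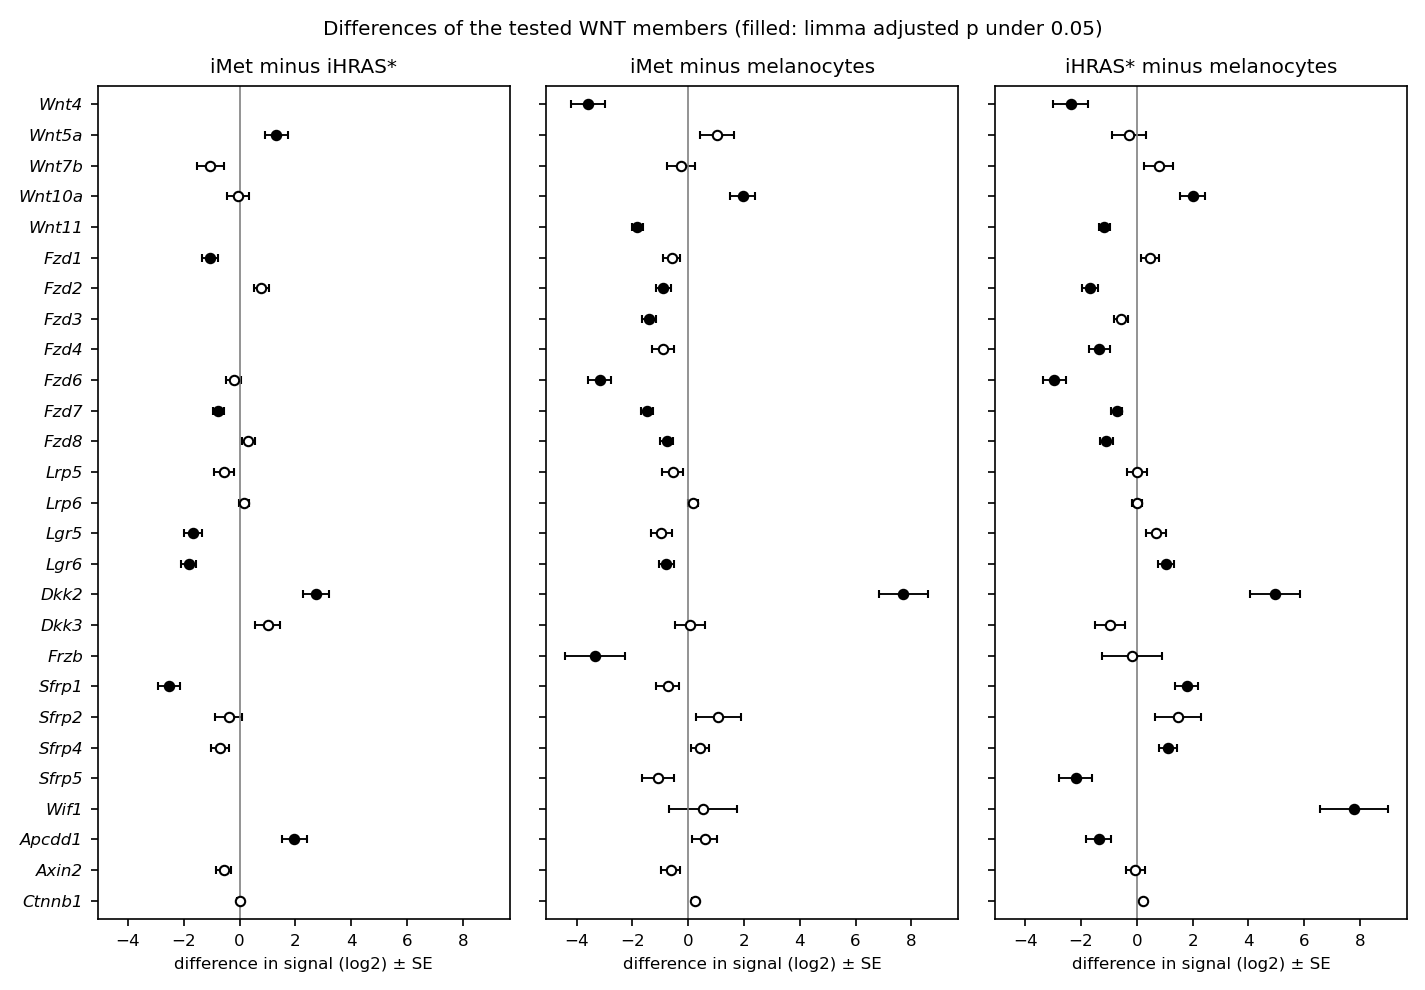
Difference in log2 signal (x axis, bars are the standard error of limma) for each member tested (rows), as iMet minus iHRAS*, iMet minus melanocytes and iHRAS* minus melanocytes. Filled points have an adjusted p under 0.05. Called differences between the models run from −2.52 for Sfrp1 to 2.75 for Dkk2, and the called frizzled receptors are lower in tumours than in melanocytes.

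Among the ligands, Wnt4 and Wnt11 were lower and Wnt10a higher in both kinds of tumour than in melanocytes, and Wnt5a was higher in iMet than in iHRAS* tumours. Wnt4 is a ligand known for its part in kidney and ovary development. Its signal was 3.59, 5.91 and 6.47 (lowest, median and highest) in iMet tumours, 5.14, 6.46 and 8.50 in iHRAS* tumours, and 9.12, 9.33, 8.35 and 9.65 on the 4 melanocyte arrays. All iMet values lay below all melanocyte values, while 1 iHRAS* tumour reached the lowest melanocyte. The fitted difference from melanocytes was −3.60 in iMet tumours (SE 0.62, adjusted p = 0.000476) and −2.36 in iHRAS* tumours (SE 0.62, adjusted p = 0.00745). Only 1 iMet tumour exceeded the cut-off, and with the others set at it Wnt4 was at least 7.26-fold lower in iMet tumours. Without melanocyte arrays 2 and 4 the iHRAS* difference was −1.99 with an adjusted p of 0.096.

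Wnt11, a ligand that acts largely without beta-catenin, was dim in every tumour. Its signal was 4.25, 4.96 and 5.24 in iMet tumours and 5.03, 5.55 and 5.88 in iHRAS* tumours (lowest, median and highest), against 6.91, 6.81, 6.44 and 6.61 in melanocytes. The melanocytes were narrowly above the cut-off and overlapped with neither model. Wnt11 passed the dim filter through the 4 melanocyte arrays alone, so the limma values with no such filter are given. The differences were −1.83 in iMet tumours (SE 0.20, adjusted p = 1.73e-05) and −1.17 in iHRAS* tumours (SE 0.20, adjusted p = 0.000774). Because the tumour signals are dim, the data bound the level of each model as at least 1.40-fold lower than in melanocytes.

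Wnt10a, which in humans is mutated in tooth and ectodermal disorders, had a signal of 6.82, 7.90 and 8.76 in iMet tumours and 6.78, 8.11 and 8.70 in iHRAS* tumours. The melanocyte values were 6.93, 5.57, 5.72 and 5.32, of which only the first exceeded the cut-off. The differences were 1.96 in iMet tumours (SE 0.45, adjusted p = 0.00362) and 2.01 in iHRAS* tumours (SE 0.45, adjusted p = 0.00278). Without melanocyte arrays 2 and 4 these calls were lost, at 1.52 (adjusted p = 0.0728) and 1.57 (adjusted p = 0.0635). With the 3 dim melanocyte arrays set at the cut-off, the difference was at least 2.74-fold and 2.83-fold.

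Wnt5a is a ligand best known for signalling that bypasses beta-catenin, and in human melanoma for cell motility. Its signal was 9.25, 9.48 and 10.06 on iMet arrays, 7.02, 8.26 and 9.56 on iHRAS* arrays, and 10.03, 7.21, 9.81 and 7.21 on melanocyte arrays. The melanocytes divided into the same 2 pairs as above. Between the models the difference was 1.32 (SE 0.42, adjusted p = 0.043), and it lost its call under 15 of 23 alternative settings. Without iHRAS* tumours 5 and 6 it was 0.94, with an adjusted p of 0.155.

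Of the ligands not called, Wnt7b, a ligand of the epidermis and other epithelia, was above the cut-off on all 16 arrays. It averaged 7.51 ± 0.81 on iMet arrays (SD, n = 6), 8.55 ± 1.04 on iHRAS* arrays (SD, n = 6) and 7.77 ± 0.40 on melanocyte arrays (SD, n = 4). Wnt5b and Wnt10b were not tested between the models because too few arrays exceeded the cut-off. Wnt5b had 4.05, 5.90 and 6.74 in iMet tumours against 2.98, 3.40 and 3.78 in iHRAS* tumours, and these ranges did not overlap, although only 1 array was above the cut-off. Wnt10b had 3.76, 6.06 and 7.36 in iMet tumours, 3 of them above the cut-off, against 2.73, 3.26 and 3.95 in iHRAS* tumours, all dim. Wnt2, Wnt6 and Wnt9a reached the cut-off on 1, 1 and 2 arrays and were tested in no comparison.

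The start of the Wnt11 gene is shown because, of the called members in the RefSeq table (GRCm38.p6), only its promoter held a TCF/LEF letter match. The 250 bases before each start were searched on both strands for CTTTGAA and CTTTGAT. Of the 48 members, 31 were in the table, and 3 of these (9.7%) held a match, against 8.6% of all 27025 genes listed. They were Dkk1, Wnt11 and Wnt5b. The called members Apcdd1, Fzd2, Fzd3, Fzd6, Fzd8, Lgr5, Sfrp1, Sfrp4, Wnt10a and Wnt5a were not in the table and were not searched. The starts of Wif1 and Dkk2, the antagonists with the largest differences, are shown beside it and held none. Each line gives the 100 bases before the start, 5′ to 3′ on the gene's strand, at chr7:98835012-98835111 (+) for Wnt11 (the first of 2 starts listed), chr10:121033904-121034003 (+) for Wif1 and chr3:132085192-132085291 (+) for Dkk2, with the match in capitals as the reverse complement of CTTTGAT.
Wnt11: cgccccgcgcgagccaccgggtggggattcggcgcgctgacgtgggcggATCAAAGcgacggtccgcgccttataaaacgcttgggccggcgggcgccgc
Wif1: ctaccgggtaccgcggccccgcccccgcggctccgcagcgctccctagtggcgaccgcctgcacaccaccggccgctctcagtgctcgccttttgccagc
Dkk2: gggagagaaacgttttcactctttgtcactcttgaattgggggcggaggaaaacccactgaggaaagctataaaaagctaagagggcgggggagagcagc
The Wnt11 match begins 51 bases before the start. G and C made up 74.0% of the Wnt11 stretch, 75.0% of that of Wif1 and 51.0% of that of Dkk2. These stretches were chosen after the expression values were seen, and a letter match is not evidence that a factor binds there.

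Of 7 frizzleds tested against melanocytes, 5 were lower in iMet tumours (Fzd2, Fzd3, Fzd6, Fzd7 and Fzd8), where 18.7% of all genes tested were. In iHRAS* tumours 5 were lower (Fzd2, Fzd4, Fzd6, Fzd7 and Fzd8), where 21.3% of all genes tested were. None was higher in either model. Fzd3 and Fzd4 would not have passed the dim filter without the melanocyte arrays, so these counts are descriptions only. Fzd6, a receptor that orients hairs in mouse skin through planar cell polarity, differed most. Its signal was 6.61, 7.05 and 7.82 in iMet tumours and 6.81, 7.40 and 8.03 in iHRAS* tumours, against 10.10, 10.99, 8.95 and 11.30 in melanocytes. Neither model overlapped with the melanocytes. The differences were −3.17 in iMet tumours (9.0-fold lower, SE 0.40, adjusted p = 3.73e-05) and −2.96 in iHRAS* tumours (7.75-fold lower, SE 0.40, adjusted p = 7.03e-05). Without melanocyte arrays 2 and 4 they were −2.36 in iMet and −2.14 in iHRAS* tumours, and without arrays 1 and 3 they were −3.98 and −3.77, all still called.

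Fzd7, a receptor used in beta-catenin signalling, was the frizzled called in all 3 comparisons. It had 6.72, 7.07 and 7.36 on iMet arrays, 7.26, 7.78 and 8.45 on iHRAS* arrays, and 8.81, 8.40, 8.23 and 8.73 on melanocyte arrays. The order was iMet below iHRAS* below melanocytes, with overlap between the models and between iHRAS* tumours and melanocytes. Between the models the difference was −0.76 (SE 0.19, adjusted p = 0.0126). Against melanocytes it was −1.48 in iMet tumours (SE 0.20, adjusted p = 7.59e-05) and −0.72 in iHRAS* tumours (SE 0.20, adjusted p = 0.0113). A second Fzd7 probe set, dim on all 16 arrays, differed by 0.63 between the models, which is the opposite sign. Without melanocyte arrays 2 and 4 the iHRAS* call against melanocytes was lost (−0.70, adjusted p = 0.0749).

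Fzd2 and Fzd8 were lower in both models than in melanocytes, with no overlap of their ranges. Fzd2 had 9.35, 9.72 and 10.09 on iMet arrays, 7.96, 9.05 and 9.51 on iHRAS* arrays, and 10.62, 10.56, 10.87 and 10.32 on melanocyte arrays. Its differences were −0.89 in iMet tumours (SE 0.28, adjusted p = 0.0211) and −1.67 in iHRAS* tumours (SE 0.28, adjusted p = 0.000343). Fzd8 had 6.63, 6.82 and 7.20 on iMet arrays, 5.74, 6.59 and 7.28 on iHRAS* arrays, and 7.82, 7.45, 7.89 and 7.33 on melanocyte arrays. Its differences were −0.77 in iMet tumours (SE 0.23, adjusted p = 0.0195) and −1.08 in iHRAS* tumours (SE 0.23, adjusted p = 0.00225). The iMet calls did not hold without melanocyte arrays 1 and 3, at −0.74 for Fzd2 (adjusted p = 0.157) and −0.53 for Fzd8 (adjusted p = 0.208), nor without array 3 alone. The Fzd2 call was also lost without arrays 2 and 4 (−1.05, adjusted p = 0.0546), and that of Fzd8 without array 1.

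Fzd3 and Fzd4 were dim in nearly every tumour. Neither would have passed the dim filter without the melanocyte arrays, so the main limma values are given with no such filter. The values with arrays left out or weighted keep the filter. Fzd3, a receptor in axon guidance, had 4.89, 5.08 and 5.90 on iMet arrays, 5.73, 6.04 and 6.50 on iHRAS* arrays, and 7.19, 6.27, 7.14 and 5.99 on melanocyte arrays. Its difference was −1.41 in iMet tumours (SE 0.26, adjusted p = 0.00141), or at least 1.36-fold lower given the dim signals, and −0.57 in iHRAS* tumours (SE 0.26, adjusted p = 0.114). Fzd4, the receptor of Norrin in retinal vessels, had 5.76, 5.97 and 6.13 on iMet arrays, 4.22, 5.60 and 6.26 on iHRAS* arrays, and 5.95, 7.65, 6.23 and 7.60 on melanocyte arrays. Its difference was −1.34 in iHRAS* tumours (SE 0.39, adjusted p = 0.0191) and −0.90 in iMet tumours (SE 0.39, adjusted p = 0.113). Only 1 iHRAS* tumour exceeded the cut-off, and with the others set at it Fzd4 was at least 1.56-fold lower. The Fzd4 difference in iHRAS* tumours rested on the melanocyte pair 2 and 4, without which it was −0.57 (adjusted p = 0.307). The call was lost without either array of that pair, and with arrays weighted by quality (−0.84). Leaving out arrays 1 and 3 moved the iMet difference of Fzd3 to −0.90 (adjusted p = 0.0213) and the iHRAS* difference of Fzd4 to −2.11 (adjusted p = 0.00145).

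**Figure D4:**
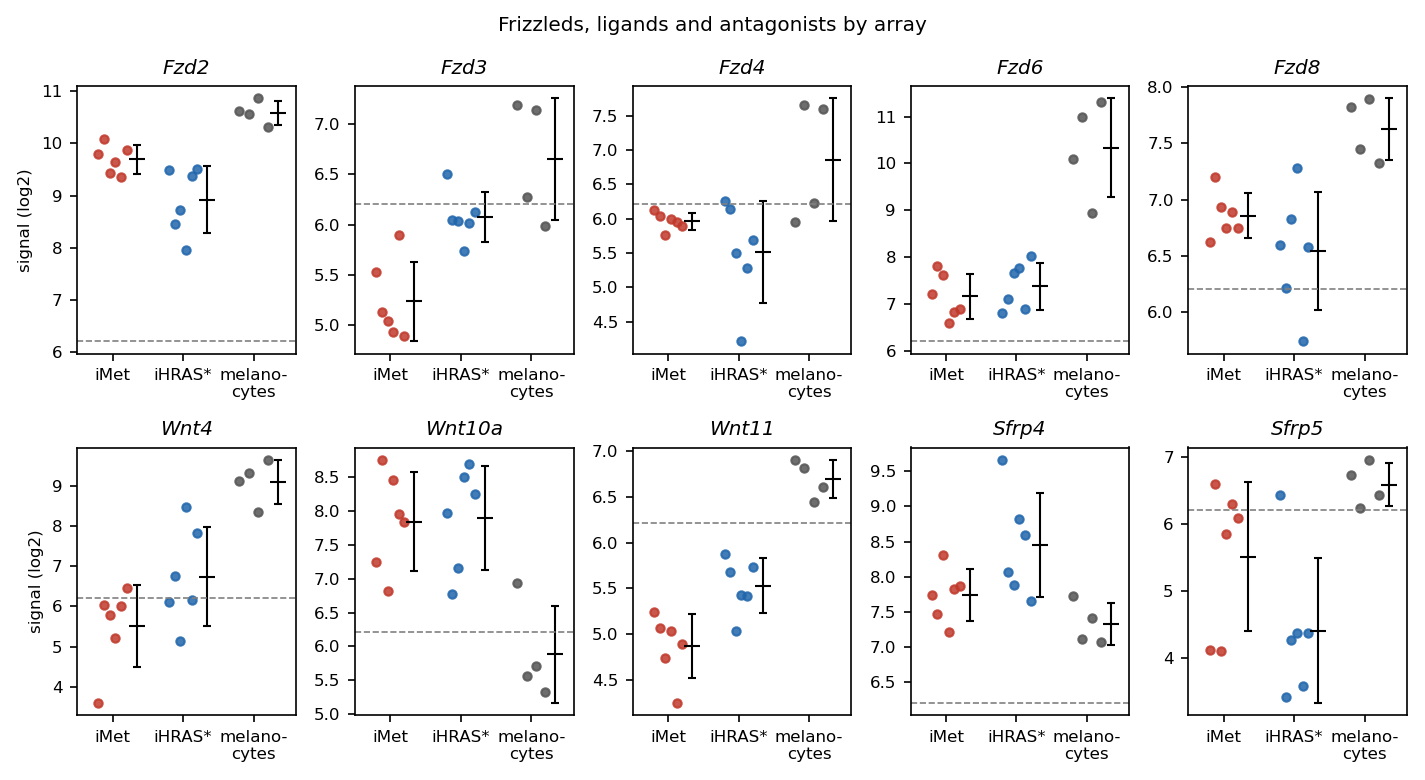
Log2 signal (y axis) of 10 members on each array in iMet tumours (red), iHRAS* tumours (blue) and melanocytes (grey), with the group mean and SD beside the points and the dim cut-off dashed. Y axes differ between panels. Fzd6 separates both models from melanocytes, and Fzd4 is high on melanocyte arrays 2 and 4 (7.65 and 7.60) and not on arrays 1 and 3 (5.95 and 6.23).

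Fzd1 was called between the models alone. It had 7.13, 7.62 and 7.78 on iMet arrays, 7.77, 8.45 and 9.84 on iHRAS* arrays, and 8.06, 8.50, 8.01 and 7.96 on melanocyte arrays. The difference of −1.06 between the models (SE 0.30, adjusted p = 0.025) became −0.65 without iHRAS* tumours 5 and 6 (adjusted p = 0.0496). It lost its call without iMet tumour 1 (−0.98), without iMet tumour 4 (−1.01), without iHRAS* tumour 5 (−0.98) and on the deposited scaling (−0.77). The differences of Fzd1 from melanocytes were −0.60 in iMet tumours (adjusted p = 0.15) and 0.47 in iHRAS* tumours (adjusted p = 0.246).

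The co-receptors were not called in any comparison. Lrp6 averaged 8.97 ± 0.08 on iMet arrays (SD, n = 6), 8.80 ± 0.42 on iHRAS* arrays (SD, n = 6) and 8.79 ± 0.27 on melanocyte arrays (SD, n = 4). Lrp5 averaged 7.24 ± 0.66 on iMet arrays (SD, n = 6), 7.80 ± 0.70 on iHRAS* arrays (SD, n = 6) and 7.79 ± 0.25 on melanocyte arrays (SD, n = 4). On the probe sets used, the differences of both genes were at most 0.56 in size, with standard errors of 0.17 to 0.37. A second Lrp6 probe set, over the cut-off on 13 arrays, differed by 0.40 between the models. Against melanocytes it differed by −0.54 in iMet and by −0.94 in iHRAS* tumours.

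Both R-spondin receptors, which also mark stem cells of the hair follicle and other epithelia, were lower in iMet than in iHRAS* tumours. Lgr6 had 6.53, 6.45, 6.59, 6.12, 6.26 and 6.75 in iMet tumours, against 8.17, 9.34, 8.49, 7.42, 8.18 and 8.07 in iHRAS* tumours, with no overlap. The melanocyte values of 7.33, 7.37, 6.72 and 7.48 lay between the models and touched both ranges. Between the models Lgr6 would not have passed the dim filter without the iHRAS* arrays, so limma values with no such filter are given. The difference was −1.83 (3.55-fold lower, SE 0.26, adjusted p = 0.00176). The call held under all 22 alternative settings run. Against melanocytes the differences were −0.78 in iMet tumours (SE 0.28, adjusted p = 0.0397) and 1.05 in iHRAS* tumours (SE 0.28, adjusted p = 0.00758). The first of these was lost under 15 of 21 settings. The second was lost without melanocyte arrays 1 and 3 (0.85, adjusted p = 0.0774).

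Lgr5 had 5.38, 5.55, 5.73, 6.09, 5.75 and 6.58 in iMet tumours, of which only the last was above the cut-off, against 8.68, 7.68, 7.67, 6.42, 7.18 and 7.37 in iHRAS* tumours. The ranges met between iMet tumour 6 and iHRAS* tumour 4. Lgr5 would not have passed the dim filter without the iHRAS* arrays either. With no such filter the difference was −1.65 (SE 0.33, adjusted p = 0.00916). With the dim iMet arrays set at the cut-off, Lgr5 was at least 2.34-fold lower in iMet tumours. Melanocytes had 6.00, 7.52, 6.69 and 7.02, which differed from neither model past the threshold (−0.96 for iMet tumours, adjusted p = 0.0563, and 0.69 for iHRAS* tumours, adjusted p = 0.153). Keratinocyte markers, whose means were 4.54 to 9.09 in iMet and 8.59 to 10.64 in iHRAS* tumours, moved in the same direction between the models as both receptors, and their part was not tested. The other genes of R-spondin reception are described with the wider pathway.

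The secreted antagonists held the largest differences among the members. Wif1, which binds WNT proteins outside the cell, was above the cut-off in iHRAS* tumours alone. Its signal was 1.91, 2.89, 0.61, −0.60, 3.64 and 2.97 in iMet tumours, against 10.81, 8.42, 4.85, 8.80, 11.01 and 11.01 in iHRAS* tumours. The melanocytes had 0.94, −1.19, 3.85 and 1.86. No iHRAS* value overlapped with either other group, although iHRAS* tumour 3 was itself dim. Against melanocytes the iHRAS* difference was 7.78. Wif1 entered that fit through the 5 iHRAS* arrays over the cut-off alone, so the limma values of the fit with no filter on dim genes are given (SE 1.25, adjusted p = 0.000464). All melanocyte and iMet values are dim, so the size is bounded only as at least 7.66-fold higher in iHRAS* tumours than in melanocytes.

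Wif1 was not tested between the models, because 5 tumour arrays exceeded the cut-off where 6 were needed. Its difference of iMet minus iHRAS* was −7.24, and the bound is at least 7.66-fold lower in iMet tumours. With no filter on dim genes limma gave a standard error of 1.09 and an adjusted p of 0.00216. Between iMet tumours and melanocytes, both dim, the difference was 0.54 (adjusted p = 0.756).

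Dkk2, a dickkopf protein that binds the LRP co-receptors, ran the other way between the models. It had 11.52, 11.15, 11.20, 11.51, 12.14 and 11.34 in iMet tumours and 9.76, 9.95, 9.71, 7.99, 7.38 and 7.57 in iHRAS* tumours, against 5.75, 1.47, 6.33 and 1.51 in melanocytes. The 3 groups did not overlap, and iHRAS* tumours 1 to 3 lay above tumours 4 to 6. Dkk2 was higher in iMet than in iHRAS* tumours by 2.75 (6.72-fold, SE 0.46, adjusted p = 0.00186), a call held under all 23 alternative settings run. Without iHRAS* tumours 5 and 6 the difference was 2.12 (adjusted p = 0.00526).

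Against melanocytes Dkk2 differed by 7.71 in iMet tumours (SE 0.89, adjusted p = 1.46e-05) and by 4.96 in iHRAS* tumours (SE 0.89, adjusted p = 0.000617). Only melanocyte array 3 exceeded the cut-off. With the other melanocyte arrays set at it, Dkk2 was at least 37.7-fold higher in iMet tumours and at least 5.61-fold higher in iHRAS* tumours. Without the lowest pair of melanocyte arrays, 2 and 4, the differences were 5.43 in iMet and 2.69 in iHRAS* tumours (adjusted p = 0.0104 for iHRAS*). Fibroblast and macrophage markers were also higher in both models than in melanocytes (7 of 10 and 12 of 12 tested in iMet tumours, 8 of 10 and 12 of 12 in iHRAS* tumours), and their part was not tested. Of all genes tested, 16.4% were higher in iMet and 18.1% in iHRAS* tumours.

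Sfrp1, a soluble frizzled-like protein that binds WNTs, was lower in iMet than in iHRAS* tumours. The values were 6.57, 6.83, 6.01, 6.71, 6.41 and 6.09 in iMet tumours and 8.30, 10.78, 8.56, 9.41, 8.58 and 8.13 in iHRAS* tumours, against 7.29, 7.64, 6.78 and 6.95 in melanocytes. All iHRAS* tumours exceeded every array of both other groups. Between the models Sfrp1 would not have passed the dim filter without the iHRAS* arrays, so limma values with no such filter are given. That difference was −2.52 (5.75-fold lower, SE 0.40, adjusted p = 0.00301), and each of the 4 Sfrp1 probe sets was lower in iMet tumours (−1.09 to −3.33). Against melanocytes the iHRAS* difference was 1.80 (SE 0.41, adjusted p = 0.0032), but 1 of the 4 probe sets differed by −0.18 and the mean of all probe sets gave 1.16 (adjusted p = 0.075). In iMet tumours it was −0.73 (adjusted p = 0.181). Markers of Schwann cells and the neural crest followed the same direction between the models as Sfrp1 and Wif1 (5 of 6 tested lower in iMet tumours, against 9.7% of all genes tested). The list means were 7.10 to 8.18 on melanocyte and 7.15 to 8.55 on iHRAS* arrays. Wif1 averaged 1.37 and 9.15 there, and Sfrp1 7.16 and 8.96. The part of these markers was not tested.

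**Figure D5:**
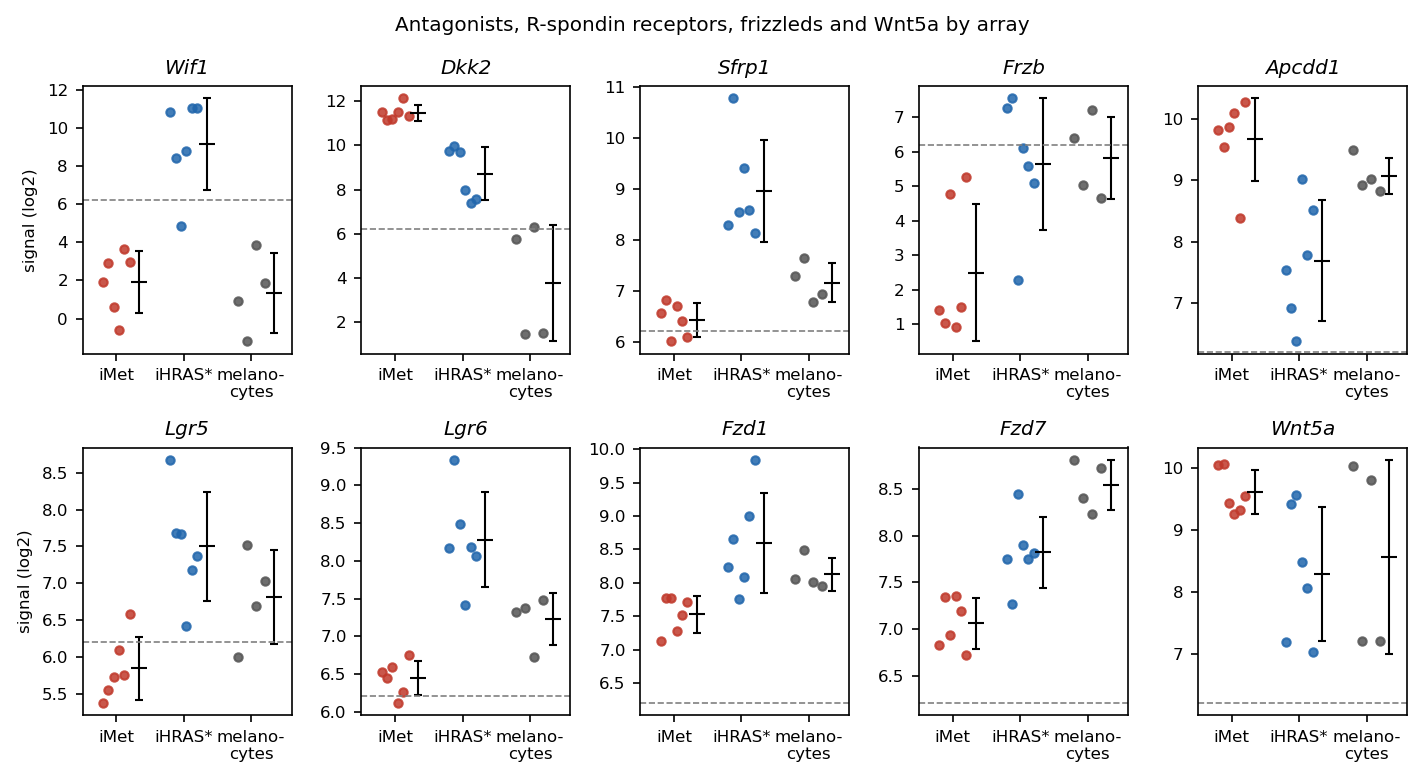
Log2 signal (y axis) of 10 members on each array in iMet tumours (red), iHRAS* tumours (blue) and melanocytes (grey), with the group mean and SD beside the points and the dim cut-off dashed. Y axes differ between panels. Dkk2 is highest in iMet tumours (11.15 to 12.14), and Wif1, Sfrp1 and Lgr6 are lower in every iMet tumour than in every iHRAS* tumour.

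Frzb, another soluble frizzled-like antagonist, had 1.41, 1.04, 4.79, 0.93, 1.51 and 5.28 on iMet arrays, all dim. Its values were 7.27, 7.55, 2.27, 6.12, 5.60 and 5.09 on iHRAS* arrays and 6.39, 5.04, 7.23 and 4.66 on melanocyte arrays, with 2 arrays of each above the cut-off. Frzb would not have passed the dim filter without the melanocyte arrays. With no such filter the iMet tumours differed from melanocytes by −3.34 (SE 1.09, adjusted p = 0.0384). No fold change is given because the melanocyte mean is dim as well. With the filter, the call was lost without iMet tumour 2 or 4, without melanocyte array 1 or 3, and with the replicate number as a block. Without both these melanocyte arrays the difference was −2.36 (adjusted p = 0.229). Between the models Frzb was not tested.

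Sfrp4 and Sfrp5 differed from melanocytes in iHRAS* tumours in opposite directions. Sfrp4 had 7.22, 7.78 and 8.31 on iMet arrays, 7.66, 8.33 and 9.66 on iHRAS* arrays, and 7.72, 7.12, 7.41 and 7.07 on melanocyte arrays. The iHRAS* difference was 1.12 (SE 0.33, adjusted p = 0.0139), with an adjusted p of 0.155 without melanocyte arrays 2 and 4. Sfrp5 had 4.10, 5.97 and 6.61 on iMet arrays, 3.42, 4.31 and 6.44 on iHRAS* arrays, and 6.73, 6.24, 6.97 and 6.43 on melanocyte arrays. Sfrp5 would not have passed the dim filter without the melanocyte arrays. With no such filter its iHRAS* difference was −2.19 (SE 0.60, adjusted p = 0.0135). With the filter, the call was lost without melanocyte arrays 1 and 3 (−1.93, adjusted p = 0.0747). Only 1 iHRAS* tumour exceeded the cut-off, and with the others set at it Sfrp5 was at least 1.27-fold lower than in melanocytes.

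Dkk3, a dickkopf relative whose link to WNT is less clear, and Sfrp2 were bright in tumours and called in no comparison. Dkk3 averaged 10.24 ± 1.07 on iMet arrays (SD, n = 6), 9.23 ± 0.53 on iHRAS* arrays (SD, n = 6) and 10.18 ± 1.09 on melanocyte arrays (SD, n = 4). Sfrp2 had 6.86, 7.72 and 8.20 on iMet arrays, 6.46, 7.80 and 9.90 on iHRAS* arrays, and 4.45, 9.51, 5.26 and 6.77 on melanocyte arrays. The melanocyte spread of Sfrp2 (SD 2.23) was larger than any difference between its group means.

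The feedback antagonists gave no common pattern. Apcdd1 is a membrane inhibitor of WNT signalling, mutated in a human inherited hair loss. Its signal was 9.81, 9.54, 9.87, 10.09, 8.39 and 10.28 in iMet tumours, against 7.54, 6.93, 6.39, 9.02, 7.79 and 8.52 in iHRAS* tumours. The melanocytes had 9.49, 8.93, 9.02 and 8.83. The ranges of the models overlapped through iMet tumour 5 and iHRAS* tumours 4 and 6. Between the models Apcdd1 was higher by 1.97 (3.91-fold, SE 0.44, adjusted p = 0.00815), and all 4 of its probe sets were higher (1.70 to 2.52).

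Against melanocytes Apcdd1 differed by −1.37 in iHRAS* tumours (SE 0.45, adjusted p = 0.0258) and by 0.60 in iMet tumours (adjusted p = 0.324). The iHRAS* call was lost without melanocyte array 1 (−1.23), without iHRAS* tumour 2 (−1.22) and without either melanocyte pair (−1.18 and −1.56). Axin2, the scaffold gene widely used as a readout of beta-catenin signalling, was not called in any comparison. It had 6.00, 6.97 and 7.54 on iMet arrays, 7.04, 7.31 and 8.29 on iHRAS* arrays, and 6.81, 7.71, 7.10 and 8.42 on melanocyte arrays. The Axin2 differences were −0.57 between the models (SE 0.27, adjusted p = 0.147), −0.62 for iMet tumours against melanocytes (SE 0.34, adjusted p = 0.164) and −0.06 for iHRAS* tumours (SE 0.34, adjusted p = 0.904). Notum, which encodes an enzyme that strips the lipid from WNT proteins, exceeded the cut-off on 1 array, at 8.11 in iHRAS* tumour 4.

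Of the nuclear effectors, Ctnnb1, which encodes beta-catenin, was not called in any comparison. It averaged 12.58 ± 0.07 on iMet arrays (SD, n = 6), 12.58 ± 0.16 on iHRAS* arrays (SD, n = 6) and 12.34 ± 0.04 on melanocyte arrays (SD, n = 4). The difference from melanocytes was 0.24 in each model (SE 0.10), with adjusted p of 0.0722 in iMet and 0.0633 in iHRAS* tumours, and the iMet values (12.51 to 12.70) did not overlap with those of melanocytes (12.31 to 12.41). Its other 2 probe sets, bright on all 16 arrays, differed by 0.61 and 0.33 between the models. Against melanocytes they differed by 0.62 and 0.51 in iMet tumours and by 0.01 and 0.18 in iHRAS* tumours. These are messenger levels, and the stability of the protein was not measured. Lef1, a DNA-binding partner of beta-catenin, had 1.04, 3.70 and 4.94 on iMet arrays, 3.57, 4.41 and 6.87 on iHRAS* arrays, and 6.41, 5.98, 6.10 and 5.0 on melanocyte arrays. It exceeded the cut-off on 2 arrays and was not tested. The iMet values all lay below the melanocyte values.

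Other genes of the pathway were taken from lists written by role. Among genes of WNT secretion, Wls, the carrier that brings WNT proteins to the cell surface, averaged 10.48 on iMet arrays, 9.59 on iHRAS* arrays and 11.16 on melanocyte arrays. It was higher in iMet than in iHRAS* tumours by 0.90 (adjusted p = 0.00567), and it differed from melanocytes by −0.67 in iMet (adjusted p = 0.0199) and by −1.57 in iHRAS* tumours (adjusted p = 5e-05). Porcn, the enzyme that adds the lipid to WNT proteins, differed from melanocytes by −1.79 in iMet tumours (adjusted p = 0.00128). Of 9 R-spondins and regulators of receptor turnover, 4 had a probe set and 1 was tested, and it was not called in any comparison.

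Among 12 alternative WNT receptors and planar polarity genes with a probe set, 3 of 7 tested were higher in iMet than in iHRAS* tumours (11.2% of all genes tested) and none lower. They were Ryk (0.50, adjusted p = 0.00524), Ror2 (1.00) and Gpc4 (0.85, adjusted p = 0.0478). Ror2 and Ryk are known receptors of Wnt5a. Ror2 was over the cut-off on 3 of 6 iHRAS* arrays. It would not have passed the dim filter without the iMet arrays, so no p is given for it. The count of 3 of 7 includes Ror2 and is a description only. Against melanocytes, 5 of 9 tested were lower in iMet tumours (18.7% of all genes tested) and 4 of 9 in iHRAS* tumours (21.3%), with none higher. Celsr1, a cadherin of planar polarity, averaged 4.21 in iMet, 5.91 in iHRAS* and 8.96 in melanocyte samples. It was over the cut-off on 0 iMet and 2 iHRAS* arrays. It was thus at least 6.75-fold lower in iMet and at least 6.42-fold lower in iHRAS* tumours. Celsr1 would not have passed the dim filter without the melanocyte arrays, so no p is given for it. The counts against melanocytes include Celsr1 and are descriptions only. In iMet tumours Ryk (−0.84), Gpc4 (−1.65) and Ptk7 (−3.07) were also lower, as were Ryk (−1.34), Gpc4 (−2.50) and Vangl2 (−0.88) in iHRAS* tumours.

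Of 14 cytoplasmic genes with a probe set, 13 were tested. Nkd2, a relative of Nkd1 that binds Dishevelled, averaged 5.85 on iMet arrays, 9.36 on iHRAS* arrays and 10.03 on melanocyte arrays. The fitted differences of the iMet tumours were −3.51 from iHRAS* tumours and −4.18 from melanocytes (SE 0.46, adjusted p = 9.59e-06). Between the models Nkd2 would not have passed the dim filter without the iHRAS* arrays, so no p is given there. Nkd2 was dim on 4 of 6 iMet arrays, and with these set at the cut-off it was at least 8.23-fold lower than in iHRAS* tumours and lower than in melanocytes by at least 3.71 on the log2 scale. Apc, of the complex that degrades beta-catenin, was lower in iMet than in iHRAS* tumours (−0.66, adjusted p = 0.00419). Ctnnbip1, an inhibitor of beta-catenin binding to TCF factors, was higher (0.68, adjusted p = 0.00449). Against melanocytes 5 of 13 were lower in iMet tumours (18.7% of all genes tested) and none higher, with Btrc (−0.82), Gsk3b (−0.87) and Dact1 beside Nkd2. Dact1 was dim on 3 of 6 iMet arrays and at least 3.16-fold lower. In iHRAS* tumours 5 of 13 were lower (21.3% of all genes tested), among them Btrc (−0.75), Ctnnbip1 (−0.69) and Axin1 (−0.45), and Apc was higher (0.66, adjusted p = 0.00382).

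Among nuclear partners, the TLE co-repressors moved in different directions. Tle3 (−0.57, adjusted p = 0.00652) and Tle4 (−1.01, adjusted p = 0.02) were the 2 genes called between the models among 12 tested, both lower in iMet than in iHRAS* tumours (9.7% of all genes tested were lower). Tle2 was higher than in melanocytes in iMet (1.63, adjusted p = 0.00124) and in iHRAS* tumours (1.76, adjusted p = 0.000647). In iMet tumours 3 of 13 tested were higher than in melanocytes and 3 lower, including Sox17 (at least 1.21-fold higher, with melanocytes dim on all 4 arrays), Tle3 (−0.57) and Tle5 (−0.54). In iHRAS* tumours 3 were higher and 2 lower, including Bcl9l (−0.86), Tle4 (at least 2.18-fold higher, with melanocytes dim on all 4 arrays) and Tcf7l1 (−0.63). Sox17 was dim on every iHRAS* and melanocyte array, so it passed the dim filter through iMet arrays alone. Its call and the iMet count that includes it are descriptions only. Sox17 is on the endothelial marker list as well.

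Other genes known as WNT targets moved both ways. Between the models, Twist1 (0.74, adjusted p = 0.0158) and Myc (0.65, adjusted p = 0.0245) were higher in iMet tumours, and Cd44 (−0.73, adjusted p = 0.00131) and Ccnd1 (−0.61, adjusted p = 0.0277) were lower, of 7 tested. Of all genes tested between the models, 11.2% were higher and 9.7% lower. Against melanocytes, Ccnd1, a cyclin of the G1 phase, was higher by 1.07 in iMet (adjusted p = 0.00271) and by 1.68 in iHRAS* tumours (adjusted p = 8.4e-05). Twist1, a factor of the mesenchyme, was higher by 2.90 in iMet (adjusted p = 0.000803) and by 2.16 in iHRAS* tumours (adjusted p = 0.00526). Jag1, a Notch ligand, was over the cut-off on 0 iMet and 2 iHRAS* arrays. Its level was at least 1.89-fold lower in iMet and at least 1.80-fold lower in iHRAS* tumours. Jag1 would not have passed the dim filter without the melanocyte arrays, so no p is given for it. Bambi, dim on all iMet arrays, was at least 1.57-fold lower in iMet tumours (adjusted p = 0.0102). Myc was lower in iHRAS* tumours (−0.71, adjusted p = 0.0253). In all, 2 were higher and 2 lower of 10 tested in iMet tumours, and 3 and 3 of 10 in iHRAS* tumours. These counts include Jag1 and are descriptions only. Of all genes tested, 16.4% were higher and 18.7% lower in iMet tumours, and 18.1% and 21.3% in iHRAS* tumours, which also stand beside the counts of nuclear partners.

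Of 4 further secreted antagonists, 2 were tested. Igfbp4, which binds insulin-like growth factors and also inhibits frizzled and LRP binding, was lower in iMet than in iHRAS* tumours (−0.34, adjusted p = 0.014). It was higher than in melanocytes by 0.86 in iMet (adjusted p = 0.0418) and by 1.20 in iHRAS* tumours (adjusted p = 0.0068).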

How the data were processed

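Total RNA was converted to biotinylated cRNA from an oligo-dT primer, per the labels' protocols, and measured on 16 arrays. The authors deposited 1 table of log2 signals (22690 probe sets) whose array medians ran from 6.56 to 7.28. The summarisation and normalization behind it are not given in the sources used here. Control probe sets (64) were left out, and the values were quantile-normalized, which removes any difference between arrays in the overall distribution. Each gene took the single-symbol probe set (20380 of these) with the highest mean over the 16 arrays. limma 3.58.1 in R 4.3.3 (lmFit, eBayes, two-sided) was fitted to the 12 tumour arrays for iMet minus iHRAS* and to all 16 for the comparisons with melanocytes. The fits were tested on simulated data. The members, the 17 marker and pathway lists and the tests were chosen with earlier results of these data known. Called members are given with their values, the others by role. Up to 4 called genes with the smallest p are named from each pathway list. The alternatives are those of the closing section. Array number limits the precision.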

Additional observations from a re-analysis of the deposited data

Results flagged for a closer look

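Lgr6 was called in opposite directions against the same melanocytes, at −0.78 in iMet tumours and 1.05 in iHRAS* tumours. The iMet call was lost under 15 of 21 settings, and the iHRAS* call without melanocyte arrays 1 and 3 (limma adjusted p = 0.0774). The difference between the models was itself tested and was −1.83 (limma adjusted p = 0.00176 with no filter on dim genes). A single array stood apart from the rest of its group in 4 of the 102 groups examined (34 members in 3 groups), where chance alone gives about 1 in 20. Dkk3 was at 8.22 in iHRAS* tumour 3, with the others at 9.19 to 9.63. Notum was at 8.11 in iHRAS* tumour 4, with the others at 5.34 to 6.18. Sfrp5 was at 6.44 in iHRAS* tumour 1, with the others at 3.42 to 4.38. Lrp5 was at 8.16 on melanocyte array 2, with the others at 7.63 to 7.68.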

How the results depend on the processing

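No called member reversed its direction under any setting run. Counts of called members moved by more than 1.5 times under a few settings. For iMet minus iHRAS*, with 3 higher and 5 lower, no filter on dim genes gave 5 higher and 8 lower, the 60th percentile as the dim filter gave 2 lower, the mean of all probe sets gave 3 lower, and the fit of all 16 arrays gave 9 lower. For iMet minus melanocytes, array weights gave 4 higher against 2, and the 60th percentile gave 5 lower against 9. For iHRAS* minus melanocytes, the 60th percentile gave 5 lower against 9. Fewer genes were tested at the 60th percentile, and the cause of the other changes was not tested. Leaving out arrays gave 2 to 3 higher and 4 to 6 lower between the models, 2 to 3 and 6 to 10 for iMet tumours against melanocytes, and 5 to 8 and 7 to 9 for iHRAS* tumours. The deposited scaling moved the median of all genes between the models to 0.23, against 0.03, and turned 905 higher and 782 lower genes into 1800 and 448, while the members gave 4 higher and 4 lower. For iMet minus melanocytes the same scaling turned 1418 higher and 1622 lower genes into 1527 and 1202, with 2 higher and 8 lower members. For iHRAS* minus melanocytes it moved that median to −0.21, against −0.09, and 1565 higher and 1839 lower genes became 1341 and 2425. Centring each array on its median gave medians of −0.22 (1176 higher and 2308 lower) for iMet minus melanocytes and −0.23 (1336 and 2570) for iHRAS* minus melanocytes. With the replicate block the counts were 2 higher and 5 lower between the models, 2 and 7 for iMet tumours against melanocytes, and 6 and 10 for iHRAS* tumours. Deviations of same-numbered tumours of the models from their group means had correlations of −0.23 to 0.14. These are low and mixed in sign, so they cannot decide whether the numbers pair the samples. Dim signals limit 14 members to an upper bound. Requiring 5 tumour arrays over the cut-off in place of 6, chosen after the values were seen, admitted Wif1 through iHRAS* arrays alone, so no p is given for it there.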
